A study of Homo sapiens with 3 samples.

Results

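The data described here are the 1078 peaks of the STAT6 library of Hep3B cells, out of 5591 peaks in the 2 deposited lists. Hep3B is an established human hepatocellular carcinoma line. Per the labels, ChIP libraries of these cells were made with an antibody against SOX4, an antibody against STAT6 and control IgG, 1 library each. No genetic change and no cytokine is named for any of them. The paper describes the assay as CUT&RUN. In CUT&RUN a nuclease tethered to the antibody releases the DNA around bound sites. Every entry of the STAT6 list was taken, and the peak names state that the list was called against the IgG library. With 1 library there is no replicate, so the values below describe this library and no p-value was computed. At many genes the peaks ran from end to end of the annotated gene, as described below, and whether all fragments of the library came from DNA bound by STAT6 was not tested.

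STAT6 is the transcription factor through which interleukin-4 and interleukin-13 act. Receptor-bound JAK kinases phosphorylate it, it dimerises and enters the nucleus, and it binds palindromes made of TTC and GAA with a spacer between them. A spacer of 4 bases is typical of STAT6, and other STAT proteins prefer 3. Its best known targets are genes of alternative macrophage activation and of type 2 immunity, such as SOCS1, CCL17, CCL26 and FCER2. In hepatocellular carcinoma cells the study asked which genes STAT6 and SOX4 bind together, with MTHFD2, a mitochondrial enzyme of folate metabolism, as the main target.

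Promoter sequences at which the list placed a peak are shown first, because they carry the letters that STAT6 is known to bind or are the promoters on which the study turns. The promoter table of RefSeq (GRCh38.p14) held 35116 windows, and the 250 bases upstream of each start site were searched. STAT6 peaks overlapped 105 of these windows, which is 0.299% and belongs to 89 genes. The motif TTCNNNNGAA, which reads the same on both strands, was found in 5 of the 105 windows, or 4.76% (Wilson 95% interval 2.05% to 10.7%), and in 5.38% of all windows. The motif with a spacer of 3 bases, TTCNNNGAA, was found in 5 of the 105 windows as well and in 6.57% of all windows. Both shares among overlapped windows thus had intervals that held the share of all windows.

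The sequences below are written 5′ to 3′ on the strand of the gene and end 1 base before the start site, with the motif TTCNNNNGAA in capitals. MTHFD2 is on the plus strand at chr2:74198365-74198614. ADRB1, the beta-1 adrenergic receptor, is on the plus strand at chr10:114043616-114043865. TRPV1, the heat- and capsaicin-gated channel, is on the minus strand at chr17:3595832-3596081. CYP3A43, a member of the main drug-oxidising cytochrome P450 subfamily, is on the plus strand at chr7:99827763-99828012. HLA-F, a class I HLA gene, is on the plus strand at chr6:29723184-29723433.
MTHFD2: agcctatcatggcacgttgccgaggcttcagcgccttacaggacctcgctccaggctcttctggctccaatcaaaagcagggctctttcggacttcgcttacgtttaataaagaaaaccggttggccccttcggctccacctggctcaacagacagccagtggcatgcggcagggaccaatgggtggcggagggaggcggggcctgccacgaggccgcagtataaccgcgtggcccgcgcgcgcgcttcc
ADRB1: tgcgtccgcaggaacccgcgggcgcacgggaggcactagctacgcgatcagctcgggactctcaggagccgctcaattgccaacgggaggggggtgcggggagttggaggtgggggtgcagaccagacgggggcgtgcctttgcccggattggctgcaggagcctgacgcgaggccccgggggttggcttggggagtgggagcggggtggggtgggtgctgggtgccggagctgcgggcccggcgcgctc
TRPV1: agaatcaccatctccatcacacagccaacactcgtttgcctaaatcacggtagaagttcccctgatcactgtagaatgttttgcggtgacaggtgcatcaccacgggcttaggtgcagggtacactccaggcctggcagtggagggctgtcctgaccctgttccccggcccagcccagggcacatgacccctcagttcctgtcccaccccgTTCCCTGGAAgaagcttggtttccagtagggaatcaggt
CYP3A43: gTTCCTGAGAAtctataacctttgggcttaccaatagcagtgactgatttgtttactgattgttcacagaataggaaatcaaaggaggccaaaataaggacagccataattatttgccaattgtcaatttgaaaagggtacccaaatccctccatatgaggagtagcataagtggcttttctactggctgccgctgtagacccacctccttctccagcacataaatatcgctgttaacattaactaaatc
HLA-F: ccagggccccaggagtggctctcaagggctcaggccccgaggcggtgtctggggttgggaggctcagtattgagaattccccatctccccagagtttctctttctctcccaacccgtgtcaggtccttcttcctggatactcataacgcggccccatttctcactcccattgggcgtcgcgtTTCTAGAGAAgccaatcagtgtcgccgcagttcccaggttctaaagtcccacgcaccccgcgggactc

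The MTHFD2 window held no TTCNNNNGAA. Only this strict form was marked, so sites that depart from it were not looked for. The paper describes putative SOX4 and STAT6 sites in the proximal promoter of MTHFD2. It reports lower reporter activity when either was mutated, and binding of both factors by ChIP-qPCR. Its peak, at chr2:74197980-74198762, had its summit at -211 bp from the start site, with 139 fragments on a background of 8.08 and a fold enrichment of 15.4. The ADRB1 window held none either, and its peak ranked 3 in the list by fold enrichment, with 79 fragments on a background of 2.16, a fold of 25.3 and a summit 414 bp downstream of the start site. In TRPV1 the motif lay 39 to 30 bases upstream of the start site and 79 bp from the summit of a 529 bp peak with 23 fragments and a fold of 7.59. In CYP3A43 it lay 288 bp from the summit, at a peak of 329 bp with 16 fragments and a fold of 4.26. In HLA-F the distance was 2137 bp, within a peak of 4013 bp and 15.7-fold enrichment. HLA-C held the same 10 letters, TTCTAGAGAA, 725 bp from the summit of its 3928 bp peak. The remaining window was that of LOC101928626, an uncharacterised locus on chromosome 1, at a peak with a fold of 3.03 on a background of 195. In the windows with the motif the summit therefore lay between 79 and 2137 bp away from it.

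The depth behind each peak could be read from the list itself. For all 1078 peaks, 1 whole number of fragments at the summit and 1 background value gave both the deposited fold enrichment, taken as fragments plus 1 over background plus 1, and the deposited −log10 p, taken as a Poisson tail, with a misfit of at most 0.00445. The background is here the number of fragments expected at the summit in the peak call against the IgG library. Summits held between 10 and 16097 fragments, with a median of 34 and quartiles of 23 and 55. Fewer than 20 fragments lay under 178 summits, or 16.5% of the list. The background had a median of 2.69 and a lowest value of 2.16, at which 303 peaks (28.1%) sat. At these peaks the fold depends on the fragment number alone, and 455 peaks of the list shared both fold and −log10 p with another peak. The largest such set was of 13 peaks, each with 23 fragments and a fold of 7.59.

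Of the 584 peaks with a background above this floor and below 10, 327 (56.0%) had a background that was a whole multiple of 0.2993 to within 0.01 multiples. If this step was the weight of 1 IgG fragment, the IgG library was 3.34 times as deep as the STAT6 library. This ratio was not tested in another way, since read totals were not used here. The floor was 7.23 of these steps and so not a whole multiple. At the floor the fold is thus over 1 shared value, and how that value was set was not tested.

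The list fell into 2 kinds of peaks by background. Peaks at the floor or below 10 numbered 303 and 584, with median fold enrichments of 10.1 and 7.76 and median widths of 661 and 629 bp, and 88.4% and 76.4% of them overlapped a protein-coding gene. Between 10 and 100 there were 81 peaks, with a median fold of 2.40 and a median width of 270 bp, and 2 of them lay at a protein-coding gene. At 100 or more there were 110 peaks, with a median fold of 1.8 and a range of 1.29 to 3.20, and 5 of them lay at a protein-coding gene. These 110 had a median of 620 fragments, against 31 at the floor, so the peaks with most fragments were those with the lowest fold.

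**Figure D1:**
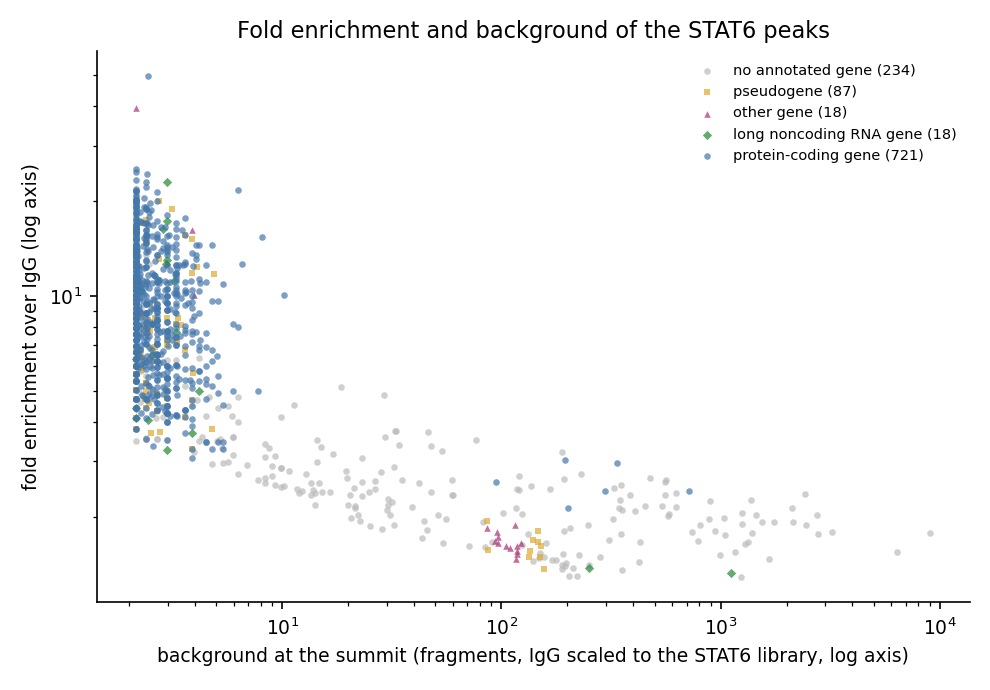
Fold enrichment over IgG (log axis) against the background at the summit in fragments (log axis), 1 point per STAT6 peak, coloured by the kind of gene the peak overlaps, with the number of peaks in brackets. The 721 peaks at protein-coding genes crowd at the left, with a median background of 2.39, and the grey points without an annotated gene extend to the right at low fold.

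By annotation, 721 peaks (66.9%, Wilson 95% interval 64.0% to 69.6%) overlapped a protein-coding gene, 18 a long noncoding RNA gene, 87 a pseudogene, 18 another gene such as those of ribosomal RNA or immunoglobulin segments, and 234 (21.7%) no annotated gene. Each peak was put in the first class that applied. Peaks at protein-coding genes had a median fold of 9.21, with quartiles of 6.40 and 12.6, and a median width of 692 bp. At pseudogenes the median fold was 5.83 and the median width 534 bp. Peaks without a gene had a median fold of 2.46 and a median width of 288 bp, and 67.9% of them had a background of at least 10, against 0.971% of the peaks at protein-coding genes.

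Peak widths ran from 217 to 24792 bp, with a median of 576 bp and quartiles of 354 and 896 bp. Widths of 500 to 1000 bp were the most frequent, with 413 peaks (38.3%). There were 202 peaks under 300 bp with a median fold of 3.36, and 76 of 2000 to 5000 bp with a median fold of 15.3. The latter took 24.9% of the 0.945 Mb under peaks. The 8 peaks of over 5000 bp had a median fold of 19.3. The median fold was thus higher in each wider class, from 3.36 to 19.3. Width and fold come from the same fragments, so this is given as a description.

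Summits lay in the middle of the peaks. The median position was 50% of the width from the lower end, the quartiles were 38.1% and 62.8%, and 861 summits (79.9%) fell between 25% and 75%. This held for 92.3% of peaks of 500 to 1000 bp and for 56.6% of those of 2000 to 5000 bp, in which summits spread over the whole peak. Of the whole list, 25 summits lay in the first 10% of their peak and 7 in the last 10%.

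**Figure D2:**
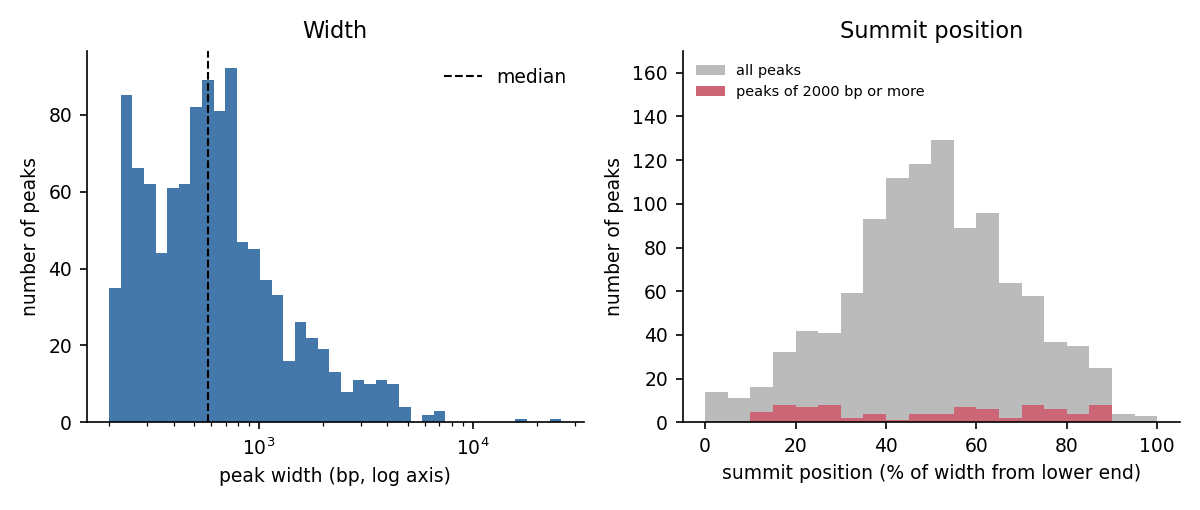
Left, the number of STAT6 peaks by width in bp (log axis), with the median of 576 bp dashed. Right, the number of peaks by summit position in percent of the width, for all peaks (grey) and those of 2000 bp or more (red); the grey bars pile up near 50%, and the red bars are spread from about 10% to 90%.

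The peak with the highest fold enrichment was also the widest. It spanned 24792 bp at chr22:42121757-42146548, over CYP2D6, which oxidises many antidepressants and opioids, and reached 49.9-fold with 170 fragments on a background of 2.43. The next peak on that chromosome covered the pseudogene CYP2D8P over 7120 bp at 23.04-fold. Second by fold was a peak of 757 bp at the immunoglobulin heavy chain segment IGHG1, with 124 fragments and 39.5-fold enrichment. After ADRB1 came TCL1A, an AKT coactivator of lymphocytes, at 24.7-fold over 3234 bp. CYP2F1, a lung cytochrome P450, followed at 24.3-fold, and HLA-DRB5, a class II HLA chain, at 23.4-fold. NTSR1, the high-affinity neurotensin receptor, had a 22.98-fold peak with its summit 738 bp downstream of the start site.

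The other peaks among the 15 highest reached 21.4-fold to 22.1-fold. One lay in the 3′ part that UGT1A1 and 8 other UGT1A genes share, which encode bilirubin and drug glucuronosyltransferases. The rest lay at KCNK3, an acid-sensitive two-pore potassium channel, EEF1A1, a translation elongation factor, POMC, the precursor of corticotropin and beta-endorphin, CES1, the main liver carboxylesterase, ASIC2, an acid-sensing sodium channel, and SLC19A1, the reduced folate carrier, whose peak also overlapped COL18A1. The EEF1A1 peak differed from these in shape, with 230 bp in width and 157 fragments on a background of 6.28.

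Of the 10 widest peaks, the second was on the mitochondrial genome, 16522 bp wide, with 1734 fragments on a background of 716 and a fold of 2.42. It counted as 1 peak for all 13 mitochondrial protein-coding genes. OPRM1, the mu-opioid receptor, held 2 of the 10, of 7305 and 6497 bp at 15.4-fold and 18.3-fold. KCNK3 had 6264 bp, RGS4, a regulator of G protein signalling, 5063 bp, and GPR65, a proton-sensing receptor, 4869 bp.

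Peaks stood close together. The gap to the next peak on the same chromosome had a median of 4936 bp over 1053 gaps, with quartiles of 1379 and 97692 bp. Under 1 kb were 195 gaps, and 165 (15.7%) were over 1 Mb. When 3 or more peaks with gaps of at most 10 kb were taken as a run, there were 94 runs that held 662 peaks, or 61.4% (Wilson 95% interval 58.5% to 64.3%). A further 84 peaks stood in pairs and 332 (30.8%) stood alone. Peaks in runs had a median fold of 8.22 and a median width of 651 bp, and lone peaks 4.80 and 382 bp. Of the runs, 78 touched a protein-coding gene, and 64 touched exactly 1.

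The longest run had 44 peaks over 115 kb of RYR1, the calcium release channel of skeletal muscle, with a median gap of 1379 bp and folds from 4.12 to 16.6. CACNA1S, the voltage sensor that opens RYR1, had a run of 25 peaks over 54.8 kb. F5, coagulation factor V, had a run of 21 peaks over 49.3 kb. A run of equal number over 56.1 kb held the 20 peaks of TRPA1, a channel for chemical irritants, and 1 beside it at the long noncoding RNA gene MSC-AS1. ABCB1, the efflux pump P-glycoprotein, had a run of 20 peaks over 51.2 kb. In these 5 runs peaks covered 30.6% to 34.2% of the span. ABCG2, another efflux pump, had 14 peaks over 50.2 kb, of which 18.1% was covered.

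Of the 8 longest runs, 2 were not at protein-coding genes. The second longest had 27 peaks over 82.0 kb without an annotated gene at chr1:143184848-143266894, with folds of 1.41 to 2.66 and a median background of 898. The seventh had 18 peaks over 49.98 kb at chr21:8419052-8469029, across ribosomal RNA genes and CDC27 pseudogenes, with folds of 1.30 to 1.88 and a median background of 148. Runs at the named genes, for comparison, had median backgrounds of 2.16 to 2.93. All 14 peaks at ribosomal RNA genes had folds between 1.47 and 1.88.

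In all, 218 of 20050 protein-coding genes (1.09%) held a peak, 205 of them nuclear. Of these, 110 genes held 1 peak, 89 (0.444% of 20050) held 3 or more and 21 held 10 or more. The 25 genes with most peaks, with ties at 8 peaks broken by summed peak width, took 365 peaks, or 33.9% of the list.

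RYR1 had the most, with 54 peaks over its 154 kb and folds from 4.12 to 17.0. ABCB1 followed with 29 peaks (4.43 to 17.4). CACNA1S had 27 peaks, CFTR, the chloride channel that is defective in cystic fibrosis, 25, F5 22 and TRPA1 20. DPYD, which degrades uracil and 5-fluorouracil, had 17 peaks over 843 kb, with a median gap of 35221 bp, the widest spacing among the 21 genes with 10 or more. KCNK2, a two-pore potassium channel with 8 peaks, had a median gap of 37569 bp. ABCG2 had 15.

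The CYP3A genes, which oxidise the largest share of drugs in the liver, stood side by side on chromosome 7. CYP3A7 and CYP3A5 had 12 peaks each, CYP3A4 had 10 and CYP3A43 had 8. ZSCAN25, a zinc finger gene that spans part of this cluster, had 27 peaks, and each of the 27 also overlapped CYP3A5, CYP3A7 or the readthrough gene CYP3A7-CYP3A51P (15 peaks). Its first peak lay 30.5 kb inside the gene. The count of ZSCAN25 was therefore that of its neighbours.

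SLCO1B1, the liver uptake transporter of statins, the dopamine receptor DRD2 and the osmosensitive channel TRPV4 had 12 peaks each, and TRPV1 had 11. ACE, which makes angiotensin II, CES1, ASIC2 and the potassium channel KCNK1 had 10 each. CYP2C19 and ASIC1, with 8 each, were also among the 25.

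**Figure D3:**
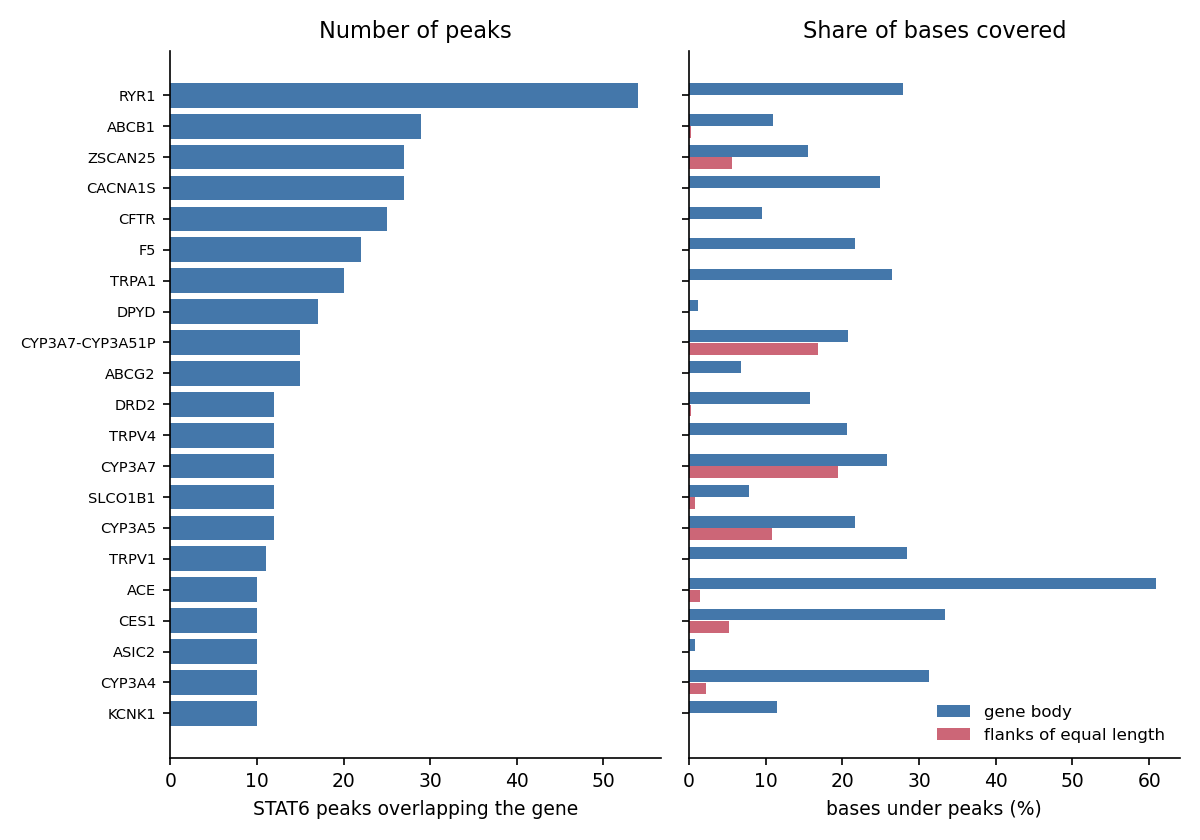
The 21 protein-coding genes with 10 or more STAT6 peaks. Left, the number of peaks that overlap each gene; right, the percent of bases under peaks in the gene body (blue) and in flanks as long as the gene on each side, starting 5 kb away (red). RYR1 leads with 54 peaks, ACE has the highest cover (60.9%), and the red bars are longest in the CYP3A cluster, where the flanks hold neighbouring CYP3A genes.

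In genes with many peaks, the peaks were spread over the annotated gene and mostly stopped near its ends. Among the 38 genes with 6 or more peaks, a median of 21.1% of the gene body lay under peaks, from 0.756% in ASIC2, which is 1144 kb long, to 60.9% in ACE. Flanks of the same length on each side, starting 5 kb away, had a median of 0.157% under peaks, and 18 of the 38 genes had none. The body was covered more than the flanks in 37 of the 38.

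Both ends of the gene lay under a peak in 30 of these 38 genes and 1 end in 5. At the 65 ends that were covered, the peak reached a median of 224 bp beyond the annotated end, with quartiles of 175 and 296 bp. RYR1 had a peak that began 210 bp before its start and one that ended 165 bp after its end, with 54 peaks in all between these points. In DPYD the outermost peaks passed the ends by 79 and 273 bp. The exceptions with no covered end were ZSCAN25, the readthrough gene SLCO1B3-SLCO1B7 and SLC19A1. Cover that follows the ends of chosen genes can also come from DNA captured for a gene panel or from another library, and whether such fragments entered this sample was not tested. Every fold and gene count given here therefore describes the fragments of the library labelled STAT6, whatever their source.

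Within the genes, summits were more frequent towards the 3′ end. Strand was known for 120 genes with a summit that lay in no other protein-coding gene, 506 summits in all. The 5 equal parts from the 5′ end held 93, 81, 94, 89 and 149 summits, so the last part held 29.4%. Summits of the last part came from 57 genes and those of the first from 64. Unlike the 506 summits, the next counts kept genes that share peaks with a neighbour, such as ZSCAN25, CYP3A5 and CYP3A7, so these genes are not independent. Among the 30 genes with 6 or more peaks and a known strand, the peak with the highest fold lay in the last part in 21, in the first part in 3 and between them in 6. The widest peak lay in the last part in 17 and in the first in 1. Thus in ABCG2 the widest peak, of 2576 bp, was also the highest, at 16.8-fold, and its summit lay at 99.7% of the gene length. In KCNK1 the same was true of a peak of 1572 bp at 18.5-fold, at 99.2%. CYP2E1, which oxidises ethanol, TYMS and ASIC1 were the exceptions with their highest peak at the 5′ end, at 0.629%, 0.634% and 0.657% of the length. The positions of exons were not used here.

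**Figure D4:**
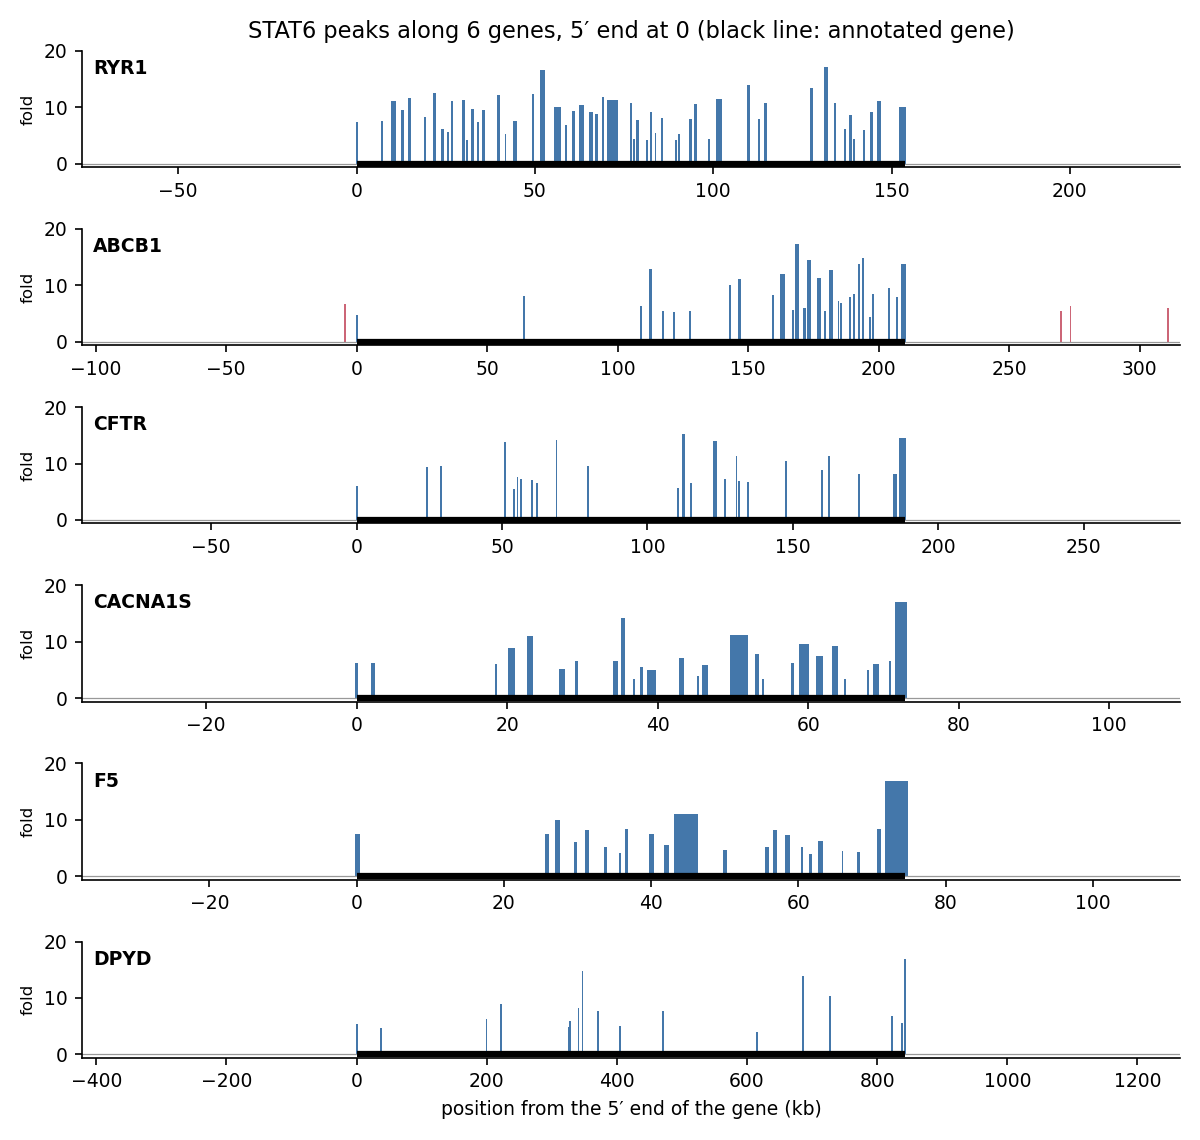
STAT6 peaks along RYR1, ABCB1, CFTR, CACNA1S, F5 and DPYD, with position in kb from the 5′ end of the gene on the x axis and fold enrichment over IgG on the y axis; each bar is 1 peak, blue where it overlaps the gene and red where it does not, and the black line is the annotated gene. Bars begin at 0 and end at the 3′ end in all 6 genes, with gaps between them, and the flanks are empty except at ABCB1.

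Start sites were not where most peaks lay. The promoter table held a start site for 15843 of the 20050 protein-coding genes, and 1028 summits lay on a chromosome with at least 1. Of these, 90 (8.75%, Wilson 95% interval 7.18% to 10.6%) were within 1 kb of a start site, 78 downstream and 12 upstream of it. Their median fold was 10.0, against 6.96 for summits farther away. The median distance was 41.7 kb, and 314 summits (30.5%) were over 100 kb from any start site of the table. The MTHFD2 peak was among the 12 on the upstream side.

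Genes of the STAT6 pathway itself were not in the list. Of 29 IL-4 and STAT6 response genes, 0 held a peak, and of 20 genes from IL-4 and its receptors through JAK kinases to the STATs, 0 did. At the 1.09% of all protein-coding genes, a list of 29 genes would hold less than 1 gene with a peak, so these counts were near the background. None of the 48 different genes of these lists had a peak within 100 kb, and the median distance to the nearest peak was 7.71 Mb. The closest was SERPINB4, a serpin induced by IL-4, with a peak in BCL2 355 kb away. STAT6 itself was 1195 kb from the nearest peak, and TNFSF11, which encodes RANKL, was 2671 kb away.

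Among 28 folate and one-carbon genes, 4 (14.3%) held a peak, against 1.09% of all protein-coding genes. They held 22 peaks with a median fold of 11.9. This list was drawn up with earlier results of these data known, so the share is a description. SLC19A1, which carries folate and methotrexate into cells, had 7 peaks with folds from 3.46 to 21.4. TYMS, the thymidylate synthase that 5-fluorouracil inhibits, had 6 peaks, of which the one at its start site reached 18.9-fold. MTHFD2 had 1 peak, at its promoter, whereas SLC19A1 and TYMS had peaks along their bodies. SHMT1 and MTHFD1 were among the list's genes without a peak.

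SOX4 held 2 peaks, of 863 and 286 bp, with 55 and 44 fragments, folds of 9.68 and 9.51 and summits 962 and 2117 bp downstream of the start site. Of 25 genes characteristic of liver cells, 1 (4%) held a peak, against 1.09% of all protein-coding genes. It was the fibrinogen chain gene FGA, with 30 fragments and 9.80-fold enrichment. ALB, AFP and APOA1 had none. A peak list does not measure expression, so this count is no check of the labelled cell type.

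Of 71 genes with known drug-response variants, 41 (57.7%) held a peak, against 1.09% of all protein-coding genes, and together they took 381 peaks, 35.3% of the list. This list was drawn up with earlier results of these data known, so the share is a description. Members without a peak included ABCC1, ABCC2, UGT2B7, ADH1B, CES2 and the nuclear receptors NR1I2 and NR1I3.

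Among these genes VKORC1, the target of warfarin, had 2 peaks up to 14.5-fold. TPMT, which methylates thiopurines, had 8 up to 16.2-fold. NAT1 and NAT2, the arylamine acetyltransferases, had 1 and 2 peaks. SULT1A1, a phenol sulfotransferase, had 3 up to 17.3-fold, and SLCO1B3, a liver uptake transporter beside SLCO1B1, had 4 up to 7.04-fold. OPRM1 had 4 peaks of 12.96-fold to 18.3-fold.

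Whole families were then counted by symbol, beside the 1.09% of all protein-coding genes with a peak. Of 56 cytochrome P450 genes, 28 (50%) held 151 peaks with a median fold of 10.1. The members fell into a few subfamilies, with 4 of 4 CYP3A genes, 15 of 16 CYP2 genes, 5 of 6 CYP4F genes and 3 of 3 CYP1 genes, a split made after the values were seen. CYP2C8 had 8 peaks, CYP2J2 8, CYP2B6 6, CYP2E1 6, CYP4F2 6, CYP2A6 4, CYP1A2 5 and CYP1A1 3. Among 46 ABC transporters, 3 held a peak, of which ABCB4, the phospholipid pump of bile, had 3 peaks up to 6.32-fold. The solute carriers had 5 of 398, or 1.26%, close to the background. Sulfotransferases had 4 of 13, all of the SULT1A subfamily. The UDP-glucuronosyltransferases had 9 of 22, but the 9 UGT1A genes share the same 3 peaks. Glutathione S-transferases had 1 of 19, GSTP1.

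Among ion channels as well, some members held peaks and most held none. Those with a peak held from 1, as at KCNK15 and P2RX2, to 54 at RYR1. TRP channels had 3 of 29, TRPA1, TRPV1 and TRPV4, with 43 peaks, and none of the other 18 TRPA, TRPC, TRPM and TRPV genes had one. P2X receptors, which are opened by ATP, had 3 of 7, namely P2RX2, P2RX3 and P2RX5. Acid-sensing channels and their epithelial relatives had 4 of 9, which were ASIC1 to ASIC4. Two-pore potassium channels had 6 of 15. Calcium channels had 2 of 34, which were RYR1 and CACNA1S with 81 peaks between them. Of the further families, 0 of 80 other potassium channel genes, 0 of 14 sodium channel genes and 0 of 59 nicotinic, GABA, glycine and glutamate receptor genes held a peak, where the 1.09% of all protein-coding genes would give less than 1 gene in each.

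Receptors had members as well. Adrenergic receptors had 2 of 9 (22.2%), and dopamine, serotonin and opioid receptors 3 of 26 (11.5%), against 1.09% of all protein-coding genes. In families chosen after the values were seen, 4 of 9 neurotensin and tachykinin genes (NTSR1, NTSR2, TAC1 and TACR1) held 18 and 3 of 3 lambda interferon genes held 1 each. Of the proton-sensing G protein-coupled receptors, GPR4 held 3 peaks, GPR65 2 and GPR132 5. Of 21 class I and II HLA genes, also chosen after the values were seen, 14 (66.7%) held 28 peaks with a median fold of 8.99. With HLA pseudogenes and the MIC genes, 34 of 50 HLA loci held a peak, and the 49 peaks had a median width of 1444 bp, against 704 bp at enzymes and transporters of drug handling and 714 bp at ion channels, and a median background of 3.59.

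Large families outside these groups were set beside the 1.09% of all protein-coding genes. Zinc finger genes had 1 of 517 (0.193%) and olfactory receptors 3 of 392 (0.765%) that share 1 peak. Immunoglobulin loci had 5 of 395 (1.27%), with 5 peaks of 10.1-fold to 39.5-fold. The loci with a peak are not classed as protein-coding, so the 1.09% is not a background for them. Ribosomal proteins, keratins and histones had 0 of 97, 0 of 55 and 0 of 92, where the background would give about 1 gene or fewer in each. Enzymes and transporters of drug handling (241 peaks), ion channels (191) and HLA loci (49) together took 44.6% of the list, and 80.2% of their peaks stood in runs. The first 2 groups pooled the enzyme, transporter and channel families counted above. Most of their members had no peak, since 50 of 554 drug-handling genes (9.03%) and 18 of 247 ion channel genes (7.29%) held one. RYR1 alone had 54 of the ion channel peaks. The 259 peaks at other protein-coding genes had a median fold of 8.42, and 54.1% of them stood in runs.

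Some pseudogenes with a peak were copies of genes with a peak. Of 17051 pseudogenes, 76 (0.446%) held one, and 29 of the 76 were named after a protein-coding gene. Of 199 pseudogenes named after a protein-coding gene with a STAT6 peak, 21 (10.6%) did, and of 8003 named after one without a peak, 8 (0.1%) did. The 4 pseudogenes of TPMT, the 3 of CFTR, and the pairs of CES1 and VKORC1 all held peaks. TPMTP1 reached 17.4-fold, above the 16.2-fold of TPMT itself. HNRNPA1 had 4 of 75 copies in the list, EEF1A1 had 0 of 50, FTL, the ferritin light chain, 0 of 20, and MTHFD2 0 of 7. TRPA2P, a pseudogene next to TRPA1, held 14 peaks with folds from 4.14 to 9.17. Of 58 cytochrome P450 pseudogenes, 13 held a peak. How reads that match several copies were placed is not given in the sources used here, so peaks at near-identical genes and copies, as in the CYP2D, CYP3A, SULT1A, UGT1A and HLA groups, are uncertain in their assignment.

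By chromosome, the densest was 19 with 138 peaks, or 2.35 per Mb, against 0.349 per Mb over the nuclear genome. RYR1 held 54 of these, and 3 further stretches of 1 Mb around its CYP2A, CYP2B, CYP2F and CYP4F genes held 24, 22 and 19. Chromosome 21 followed with 1.16 per Mb, where 40 of its 54 peaks had a background of at least 10, and chromosome 7 with 0.791 per Mb, where 5 of 126 had. These 3 chromosomes held 29.5% of the list. Chromosome 1 had the most peaks, 151, of which 42 had a background of at least 10. Chromosomes 9, 3 and X had the lowest densities, with 0.0361, 0.0454 and 0.0577 per Mb.

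**Figure D5:**
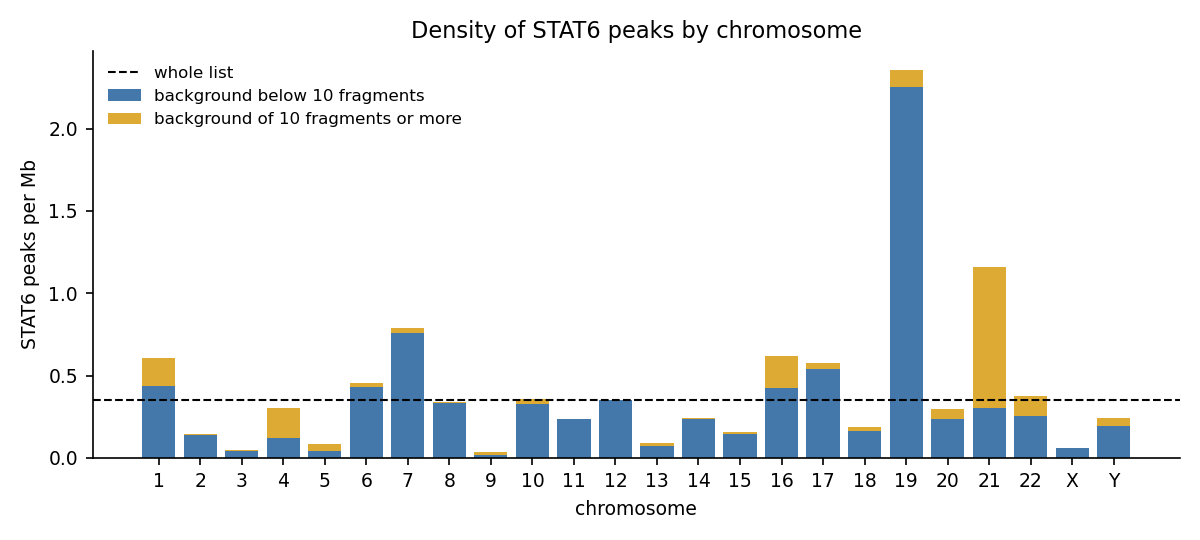
STAT6 peaks per Mb on each nuclear chromosome, split into peaks with a background below 10 fragments (blue) and of 10 or more (yellow), with the density of the whole list dashed. Chromosome 19 stands at 2.35 per Mb and is almost all blue, whereas most of the bar of chromosome 21 (1.16 per Mb) is yellow.

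When the chromosomes were cut into stretches of 1 Mb, 28 stretches had 10 or more peaks and took 610 peaks, or 56.6% of the list. The fullest was that of RYR1 with 54 peaks, followed by that of the CYP3A genes on chromosome 7 with 48. Of the 28, 6 had a median background of at least 10 and no peak at a protein-coding gene, and they held 112 peaks. These were the stretch from 8 Mb of chromosome 21 (38 peaks, median fold 1.57), that from 143 Mb of chromosome 1 (27 peaks, 1.97), 3 neighbouring stretches of chromosome 4 from 49 Mb (10, 16 and 11 peaks, 2.27, 2.54 and 2.39) and that from 34 Mb of chromosome 16 (10 peaks, 2.12). The peak with the most fragments in the list, at chr3:93470447-93470736, was of this kind, with 16097 fragments on a background of 9037 and a fold of 1.78.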

How the data were processed

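Chromatin of Hep3B cells was profiled by CUT&RUN with 1 library each for STAT6, SOX4 and IgG, sequenced as paired-end reads. The authors processed the reads and called peaks in Partek Flow. The submitters' processing notes also name BWA and the build hg38. The peak calling algorithm, its threshold and the placement of reads with several matches are not given in the sources used here.

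For each peak the authors deposited the fold enrichment over IgG (a ratio), −log10 p and −log10 q, a score and the summit offset. The deposited score, a whole-number form of −log10 q, was not used. The lowest −log10 q was 1.35. The SOX4 list entered only the total number of peaks. The IgG library was used only through the fold and −log10 p of the STAT6 list.

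Fragments at the summit and background were solved from fold and −log10 p, accepted at a misfit of at most 0.005. Peaks were compared with 59716 placed genes of RefSeq GRCh38.p14, where an overlap of 1 bp sufficed. Chromosome length was the largest position among genes and peaks. Strand and start sites came from the RefSeq promoter table. Positions are 1-based. Wilson 95% intervals cover counting error over peaks only.

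The members, gene lists and families were chosen with earlier results of these data known. Named genes were the 25 with most peaks, those at the 15 peaks with the highest fold, the 10 widest peaks and the 8 longest runs, all list members with a peak, and STAT6, SOX4 and MTHFD2. Others, among them the holders of the promoter motif, examples of peaks at gene ends, BCL2, LOC102724250, further cytochrome P450 genes, pseudogenes and the families marked in the text, were chosen after their values were seen. The HLA, proton-sensing receptor, neurotensin, lambda interferon and CYP subfamily groups, the start-site and background measures and the comparison of pseudogenes were added after seeing the data. Genes of the Y chromosome are not described by name, and some further genes of this rule are not reported here.

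Procedures were tested on simulated data. Of 189 peaks with planted fragments and background 100% were recovered, and 150 of 150 peaks planted in runs were found. The planted values were made with the same formulas that the procedure inverts, and planted runs were far from lone peaks. These results therefore check the code only. All planted folds were below the list's median of 7.27, and cases with a very large −log10 p were left out. Computations used Python 3.11.15, numpy 2.4.6, scipy 1.17.1, pandas 2.3.3 and matplotlib 3.10.9.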

Additional observations from a re-analysis of the deposited data

How the results depend on the processing

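No paired analysis was possible because the STAT6 list comes from 1 library, and no result rests on a test between samples. For the same reason no library could be left out. Of 27 alternatives for 12 results, 20 stayed within the Wilson interval of a share or within 1.5 times a count or median. The share of peaks in runs, 61.4%, was 53.2% with gaps of at most 5 kb, 74.1% with gaps of at most 50 kb, 64.4% at a −log10 q of at least 5 and 67.2% at a fold enrichment of at least 5. The share of peaks at protein-coding genes, 66.9%, was 73.3% at a −log10 q of at least 5. The share of summits near a start site, 8.75% within 1 kb, was 12.7% within 3 kb, and 62.5% of peaks had a background below 3, against 28.1% at the floor. The last 2, like all alternatives for start sites, background and promoter motif, were chosen after seeing the data. By construction a wider gap or reach can only add peaks, and for the stricter thresholds the cause was not tested. A −log10 q of at least 5 left 905 peaks, a fold of at least 5 left 737, and 204 and 190 genes held a peak, against 218. Depth limits the list at its lower end, where a peak rests on as few as 10 fragments.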

Other observations

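The 5 peaks at LOC102724250, an uncharacterised protein-coding locus near the start of chromosome 1, had folds of 2.13 to 3.03 on backgrounds of 94.6 to 338. Mitochondrial-gene pseudogenes lie in the same stretch, and 7 of 487 such pseudogenes on the nuclear chromosomes held a peak. On the mitochondrial genome itself the fold was 2.42 on a background of 716. HLA-DRB1 was the only other protein-coding gene with a peak on a background of at least 10, with a fold of 10.1 on a background of 10.2.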
